A study of Mus musculus with 6 samples.

Results

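Aminoacyl-tRNA synthetases are the enzymes that join each amino acid to its transfer RNA, the step that decides which residue the ribosome inserts at a codon. The genes described here were found by exact symbol among the 55536 gene rows of each count table. All 35 named genes were present once, 19 of them for cytosolic enzymes and 16, with symbols ending in 2, for mitochondrial enzymes. All 35 passed the filter on low counts and were tested together with every other expressed gene, 15696 in all.

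The libraries come from 6 tumors of B16, a mouse melanoma line, sequenced as total RNA. About 100000 cells were placed under the skin of C57BL/6J mice, and the tumors were taken on day 13. The 3 tumors called vector control grew from B16 cells with the vector alone, and the 3 called ATM KO grew from B16 cells lacking ATM, the kinase that signals DNA breaks. The knockout was in the injected cells and not in the host, and whether those cells were 1 clone, how the gene was disrupted, and whether each tumor had its own mouse are not given in the sources used here. Each p-value thus rests on the spread among 3 tumors a group, which may be technical in part, and an effect of the genotype cannot be told apart from one of the cell line.

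Each library held 22101124 to 29037715 counts on genes, and the lowest count of any synthetase in any library was 133 (Pars2). Atm itself had 2508, 2346 and 2306 counts in the vector control tumors and 2371, 3692 and 3132 in the ATM KO tumors, so counts over the whole gene do not check the labels. Melanocytic marker genes, 10 in all, summed to 19700 to 28270 CPM in vector control (CPM is a gene's count relative to its library's total after TMM scaling, which evens out differences in composition) and 20040 to 20280 CPM in ATM KO tumors, and none was at 0. Single genes among the 10 differed both ways, with log2 fold changes (ATM KO minus vector control) from -0.75 to 0.80. The edgeR test used below called 1 lower and 0 higher, against 2.75% and 2.21% of all tested genes. DESeq2, a second tool, called 1 lower and 3 higher, against 8.12% and 6.5% of all genes it tested. Sums of host tissue markers varied more. The 14 skeletal muscle markers summed to 35.2, 92.3 and 9632 CPM in controls 1, 2 and 3 and to 3468, 9690 and 837 CPM in ATM KO tumors 1, 2 and 3. The 13 leukocyte markers summed to 423 to 1041 CPM in vector control and 687 to 872 CPM in ATM KO tumors. In such bulk tissue, fewer cells of a type and less RNA per cell cannot be told apart, and the part of host cells in the results below was not tested.

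Cytosolic synthetases are household enzymes, and several of them (with EPRS, which charges both glutamate and proline, among them) sit in a large multi-synthetase complex. Mitochondria import a second set that charges the tRNAs of the mitochondrial genome, while GARS and KARS serve both compartments. In mammals many cytosolic synthetase genes are transcribed at a higher rate when amino acids are scarce or proteins misfold: kinases of the translation factor eIF2 are then activated, translation of the transcription factor ATF4 increases, and ATF4 binds composite sites shared with C/EBP proteins. WARS, the tryptophan enzyme, is also known as a gene induced by interferon gamma.

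Among the cytosolic enzymes, Aars, Gars and Iars fell in ATM KO tumors and no member rose (edgeR quasi-likelihood test, p adjusted by Benjamini-Hochberg over all tested genes and below 0.05). That is 3 of 19 lower, where 2.75% of all tested genes were called lower, 2.21% higher and 4.96% either way. Fold changes were below 0 for 15 of the 19, against 50.9% of all tested genes, with a median log2 fold change of -0.23 against -0.0058 over all tested genes. In 10 of the 19, every ATM KO tumor lay below every vector control tumor, a pattern met by 15.4% of all tested genes. Hars was the 1 member with every ATM KO tumor above the controls, which held for 14.3% of all tested genes.

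**Figure D1:**
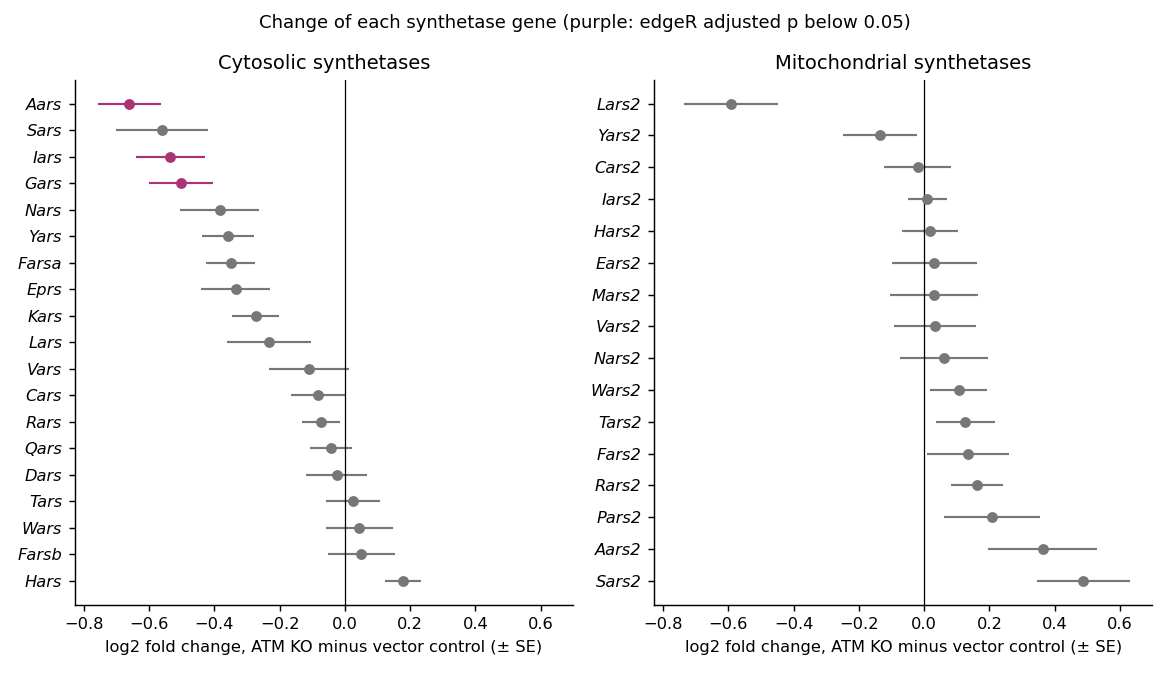
Log2 fold change (ATM KO minus vector control) of each synthetase gene with its standard error, 3 tumors per group, in separate panels for the 19 cytosolic and 16 mitochondrial genes. Purple points passed the edgeR test; 15 of the cytosolic points and 3 of the mitochondrial points lie below 0.

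Aars, which charges alanine, was at 495, 602 and 515 CPM in control tumors 1, 2 and 3. In ATM KO tumors 1, 2 and 3 it was at 319, 355 and 346 CPM. The groups were far apart, with the highest ATM KO tumor well under the lowest control. The log2 fold change was -0.66 ± 0.10 (SE, n = 3 per group; edgeR adjusted p = 0.0260). Gars, the glycine enzyme of cytosol and mitochondria, stood at 480, 600 and 505 CPM in the controls and at 370, 381 and 368 CPM in the knockout tumors. Its 3 knockout values were nearly equal (373 ± 7.09 CPM, SD), while the controls were spread by tumor 2 (528 ± 63.6 CPM). The log2 fold change was -0.50 ± 0.10 (SE; edgeR adjusted p = 0.0431). Iars, the isoleucine enzyme and a subunit of the multi-synthetase complex, read 287, 345 and 298 CPM in the controls against 190, 224 and 228 CPM in the knockout tumors. Again no tumor crossed between the groups, and the log2 fold change was -0.53 ± 0.11 (SE; edgeR adjusted p = 0.0455).

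Limma-voom called the same 3 genes, where it called 2.41% of all tested genes lower, 1.97% higher and 4.38% either way. DESeq2, which called 8.12% of genes lower and 6.5% higher, called 9 cytosolic members lower, adding Sars, Nars, Eprs, Kars, Yars and Farsa, and Hars higher. Scaled by library size alone, Aars was the 1 cytosolic member called, and 58.6% of 860 calls over all genes were then higher, against 44.6% of 778. The 3 calls were kept without vector control tumor 1, when 6 synthetase genes and 1209 genes in all were called, against 778 with every tumor. They were lost without vector control tumor 2 or 3 or ATM KO tumor 1, 2 or 3, when 28, 110, 2, 42 and 196 genes were called in all. The log2 fold changes without 1 tumor ran from -0.71 to -0.54 for Aars, from -0.57 to -0.37 for Gars and from -0.58 to -0.42 for Iars, the smallest change of each without vector control tumor 2.

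The promoter of each called gene held a match to the composite ATF4 and C/EBP site, so those sequences are shown. The search used the letters TGATGNAA on both strands, from 250 bases before to 50 bases after the RefSeq start (GRCm38.p6), and 26 of the 35 members had such a sequence. Cars, Hars, Lars, Nars, Rars, Vars, Wars, Hars2 and Pars2 had no entry. The 250 bases before the starts of Aars (chr8:111033592-111033841, plus strand) and Gars (chr6:55037751-55038000, plus strand) are printed 5′ to 3′. Capitals mark TTGCATCA and TTTCATCA, the site read on the opposite strand, and CACGTG in Aars, the E-box that MYC and related factors bind.
Aars: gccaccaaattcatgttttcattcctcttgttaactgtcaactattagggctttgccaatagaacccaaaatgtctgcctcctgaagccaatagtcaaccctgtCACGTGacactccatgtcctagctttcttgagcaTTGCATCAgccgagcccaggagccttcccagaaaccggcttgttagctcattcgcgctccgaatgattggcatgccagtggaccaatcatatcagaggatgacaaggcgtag
Gars: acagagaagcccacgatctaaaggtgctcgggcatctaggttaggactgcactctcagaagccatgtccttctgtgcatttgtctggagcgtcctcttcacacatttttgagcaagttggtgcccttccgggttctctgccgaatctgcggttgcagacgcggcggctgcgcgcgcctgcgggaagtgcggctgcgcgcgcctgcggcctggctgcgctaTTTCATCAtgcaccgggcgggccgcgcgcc

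The match lay 112 to 105 bases before the start in Aars and 30 to 23 bases before it in Gars. Aars held a further match 10 to 17 bases after the start, and Iars, Yars and Tars had theirs close to the start. To show how alike these are, 30 bases around each follow, with the match in capitals, at chr8:111033840-111033869 (plus strand), chr13:49682126-49682155 (plus), chr4:129189895-129189924 (plus) and chr15:11399655-11399684 (minus).
Aars: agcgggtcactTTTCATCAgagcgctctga
Iars: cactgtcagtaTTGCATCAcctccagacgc
Yars: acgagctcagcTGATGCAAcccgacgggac
Tars: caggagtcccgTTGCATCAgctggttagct

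In all, 5 of 12 cytosolic synthetase genes with a promoter entry (41.7%) and 0 of 14 mitochondrial ones held TGATGNAA, against 4.51% of 27025 genes. CACGTG stood in 4 of the 12 (Aars, Iars, Farsb and Tars) and 1 of the 14 (Ears2), against 8.09% of all genes, and nowhere overlapped the first motif in these promoters. Whether a match bears on a change was not tested, and members without an entry, Nars and Rars among them, could not be searched. Tars, which charges threonine and held both motifs, read 154, 181 and 168 CPM in control and 162, 178 and 172 CPM in knockout tumors, fully overlapping (log2 fold change 0.02). Sars, with neither motif in the window, had the second lowest fold change of the class.

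Several further cytosolic genes lay lower in each ATM KO tumor without passing in edgeR. Sars, the serine enzyme, was at 329, 407 and 342 CPM in the controls and 209, 237 and 286 CPM in the knockouts (log2 fold change -0.56 ± 0.14, SE; edgeR adjusted p = 0.0749). Its knockout tumors were spread, tumor 3 lying nearest to the controls. Yars, the tyrosine enzyme, was at 118, 135 and 125 CPM against 94.7, 104 and 96.6 CPM (-0.36; edgeR adjusted p = 0.0548). Nars, the asparagine enzyme, read 318, 403 and 339 CPM against 237, 286 and 289 CPM (-0.38; edgeR adjusted p = 0.128). In all 3 genes vector control tumor 2 was the highest control and tumor 1 the lowest, while the highest knockout tumor was tumor 3 for Sars and Nars and tumor 2 for Yars.

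Eprs and Kars are both subunits of the multi-synthetase complex. Eprs stood at 481, 613 and 532 CPM in the controls and 403, 436 and 451 CPM in the knockouts (log2 fold change -0.33; edgeR adjusted p = 0.129). Kars, the lysine enzyme, was at 308, 327 and 309 CPM against 277, 251 and 253 CPM (-0.27; edgeR adjusted p = 0.0825). Neither overlapped between the groups. The other complex members among the genes named here, Lars, Rars, Qars and Dars, had log2 fold changes of -0.23, -0.07, -0.04 and -0.02. All 7 complex members counted were thus below 0, Rars, Qars and Dars by little, and 1, Iars, passed. Of the 12 cytosolic genes outside the complex 8 were below 0 and 2 passed, with a median of -0.23 in either group. Over all tested genes 50.9% were below 0 and 2.75% were called lower. The sign for Dars and Qars turned when counts were scaled by library size alone (0.025 and 0.0071). Rars, the arginine enzyme, differed by little but without overlap, at 163, 169 and 161 CPM against 152, 160 and 157 CPM (edgeR adjusted p = 0.534).

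The non-enzyme scaffolds of the complex showed small differences. Aimp1 was at 64.1, 69.5 and 63.4 CPM in control and 63.2, 65.3 and 65.2 CPM in the knockouts (log2 fold change -0.03), and Aimp2 had 0.05. Eef1e1, which links the complex to elongation factor 1, had -0.18, and none of the 3 passed (edgeR adjusted p from 0.331 to 0.873).

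Phenylalanine is charged by an enzyme of 2 different subunits, and their transcripts differed. Farsa, the catalytic subunit, was at 59.1, 64.0 and 61.3 CPM in control and 52.0, 46.8 and 45.9 CPM in the knockouts (log2 fold change -0.35 ± 0.07, SE; edgeR adjusted p = 0.0520). Farsb, the partner subunit, read 101, 128 and 120 CPM against 126, 120 and 115 CPM (0.05; edgeR adjusted p = 0.839). The Farsa to Farsb ratio of CPM was 0.587, 0.499 and 0.510 in the controls and 0.413, 0.389 and 0.398 in the knockout tumors. The ratio was thus lower in every knockout tumor.

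Hars, the histidine enzyme, ran opposite to most of its class. Its values were tight in both groups, at 78.3, 81.6 and 80.6 CPM in the controls and 91.1, 89.6 and 91.6 CPM in the knockouts (log2 fold change 0.18 ± 0.06, SE; edgeR adjusted p = 0.123). Hars and Hars2 are neighbors on opposite strands of chromosome 18 with overlapping exons, and without a stated strand setting their reads may not be told apart. The same limit holds for Yars with C77080 (2500 to 4276 counts per library), Cars2 with Naxd (984 to 1184), Ears2 with Ubfd1 (1337 to 1813), Fars2 with Lyrm4 (174 to 246) and Iars2 with Rab3gap2 (1598 to 2814). Aars shares exon bases with Exosc6 on the same strand. Exosc6 is listed at 0 in every library, and how reads on the shared bases were counted was not tested. Wars read 145, 174 and 176 CPM against 182, 171 and 157 CPM, overlapping (0.04; edgeR adjusted p = 0.857), and its sign turned without vector control tumor 1 (-0.04) or ATM KO tumor 1 (-0.0092). Of 15 interferon gamma response genes measured beside it none passed in edgeR, with a median log2 fold change of 0.17. At an unadjusted p below 0.05, 1 of the 15 was higher (Cxcl9) and 1 lower (Cxcl10), against 10.6% and 12.3% of all tested genes. DESeq2 called Cxcl10 alone of the 15, where it called 8.12% of all genes it tested lower. Cars, Vars and Farsb completed the class with log2 fold changes of -0.08, -0.11 and 0.05.

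**Figure D2:**
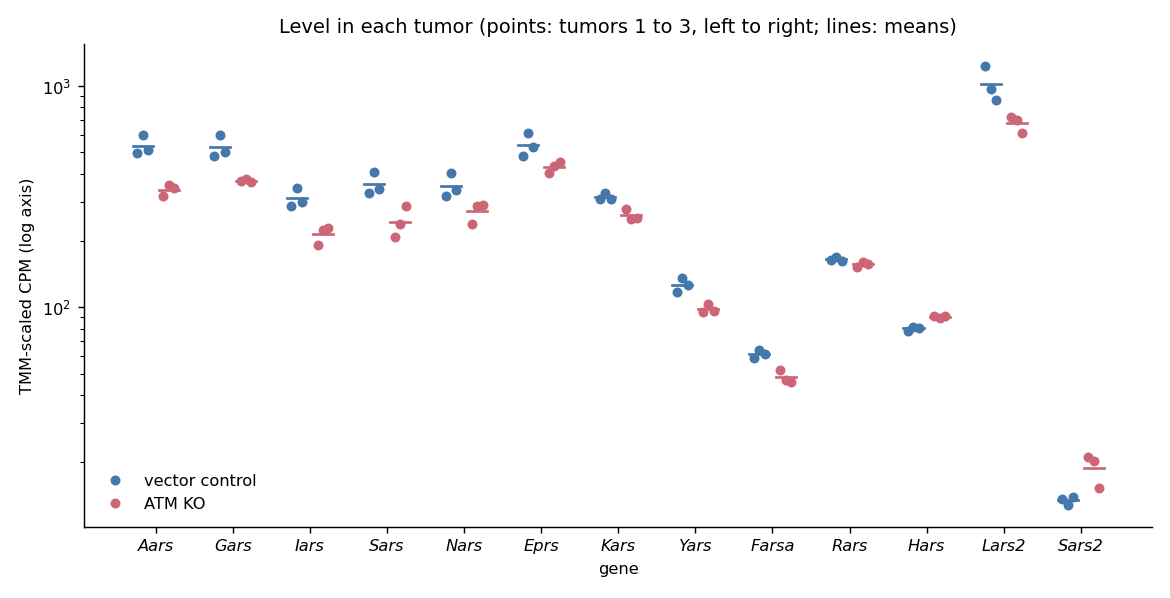
TMM-scaled CPM on a log axis in each of the 3 vector control and 3 ATM KO tumors for 13 synthetase genes, with lines at the group means. Aars ranges from 495 to 602 CPM in control and from 319 to 355 CPM in knockout tumors, while Hars and Sars2 lie higher in every knockout tumor.

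No mitochondrial synthetase gene passed in edgeR or limma-voom. Of the 16, 13 had a fold change above 0, and the median log2 fold change was 0.05. At an unadjusted p below 0.05, 1 of the 16 was higher (Sars2) and 1 lower (Lars2), below the shares of all tested genes at that level (10.6% higher and 12.3% lower). DESeq2 called the same 2, where it called 6.5% of all genes it tested higher and 8.12% lower. The groups did not overlap for 3 of the 16 that were higher in knockout tumors (Sars2, Pars2 and Rars2) and for 1 that was lower (Lars2). Over all tested genes these shares were 14.3% and 15.4%.

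Sars2, the mitochondrial serine enzyme, was at 13.6, 12.8 and 14.0 CPM in control and 21.0, 20.3 and 15.3 CPM in the knockouts (log2 fold change 0.49 ± 0.14, SE; edgeR adjusted p = 0.106). ATM KO tumor 3 lay close to the controls. Aars2, the alanine enzyme, was at 17.2, 24.9 and 21.1 CPM against 28.5, 29.9 and 22.9 CPM (0.36; edgeR adjusted p = 0.255), with tumor 3 inside the control range. Pars2, the proline enzyme and the least abundant member, read 5.88, 6.08 and 6.09 CPM against 6.85, 6.34 and 7.67 CPM (0.21; edgeR adjusted p = 0.468). At the low end of the class after Lars2 stood Yars2 (-0.14) and Cars2 (-0.02), the tyrosine and cysteine enzymes. Yars2 was at 22.5, 20.9 and 19.2 CPM in control and 18.8, 21.2 and 17.1 CPM in knockout tumors. Cars2 was at 26.3, 27.3 and 26.2 CPM against 28.9, 26.8 and 23.1 CPM, and its sign turned when counts were scaled by library size alone (0.03). In both genes the groups overlapped. Iars2 was among the steadiest, between 132 and 141 CPM over all 6 tumors (log2 fold change 0.01).

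Lars2, annotated as the mitochondrial leucine enzyme, stood apart in level and direction. It was at 1230, 965 and 866 CPM in control and 720, 698 and 615 CPM in knockout tumors. All knockout values lay below all control values (log2 fold change -0.59 ± 0.14, SE; edgeR adjusted p = 0.0703). Near its 3′ end, the 3894-base transcript shares 72 bases at 98.6% identity with Gm15564 and 97 bases at 94.8% identity with AA474408, so how reads were split between them is uncertain. Gm15564, a noncoding transcript on chromosome 16, moved with Lars2: it was at 235, 194 and 194 CPM in control and 162, 138 and 133 CPM in knockout tumors (-0.52; edgeR adjusted p = 0.0551). AA474408 went the other way at a level far lower, from 0.486, 0.503 and 0.621 CPM to 1.76, 1.93 and 1.75 CPM, and rose (1.75 ± 0.24, SE; edgeR adjusted p = 0.0228), a call kept without vector control tumor 1 and lost when any of the other 5 tumors was left out. What share of the Lars2 reads fell on the shared stretch was not tested.

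Levels per length also differed between the classes, though single genes overlapped. Per kilobase of merged exons, the median over the cytosolic genes was 44.2 CPM in vector control tumors, from 13.5 (Farsa) to 169 (Gars). Over the mitochondrial genes the median was 4.24 CPM per kilobase, from 1.94 (Pars2) to 92.0 (Lars2). Lars2 ranked second of all 35 on that scale, while the next mitochondrial gene, Iars2 at 15.3, ranked 20th. The GARS and KARS genes, which also supply the mitochondrial enzymes, ranked 1 and 4.

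For 13 amino acids the cytosolic and mitochondrial genes can be set side by side in the same tumors. The cytosolic fold change was below the mitochondrial one in 11 of 13, histidine and leucine being the exceptions. The CPM ratio of the pair was lower in every knockout tumor than in every control tumor for 7 amino acids and higher for none. How often ratios of other gene pairs part the groups in this way was not tested. For phenylalanine the cytosolic gene used was Farsa, and Farsb was not paired with Fars2. The Aars to Aars2 ratio was 28.8, 24.2 and 24.5 in the controls and 11.2, 11.9 and 15.1 in the knockout tumors. The Sars to Sars2 ratio was 24.2, 31.8 and 24.5 against 9.92, 11.7 and 18.7. These were the widest gaps between partners, at -1.02 and -1.05 on the log2 scale. Isoleucine, phenylalanine (Farsa), asparagine, arginine and valine made up the other 5.

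**Figure D3:**
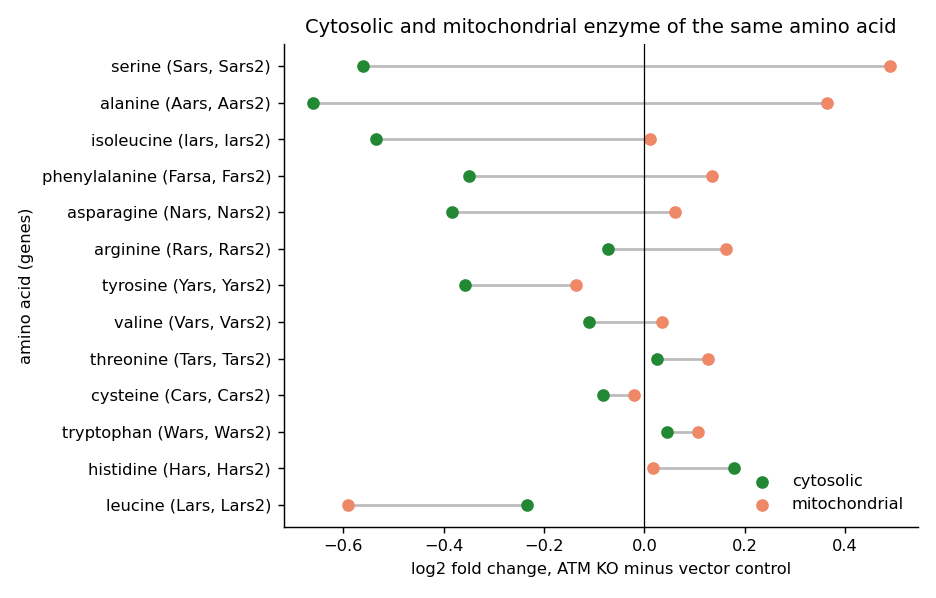
Log2 fold change (ATM KO minus vector control) of the cytosolic (green) and mitochondrial (orange) gene for each of 13 amino acids, joined by a line. The green point lies to the left in 11 of 13, with the widest gaps for serine (-0.56 and 0.49) and alanine (-0.66 and 0.36).

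Partners of mitochondrial tRNA charging did not move as 1 group. Of 19 genes for mitochondrial charging partners, tRNA modification and translation factors 1 rose and 1 fell in edgeR, against 2.21% and 2.75% of all tested genes, with a median log2 fold change of -0.03. Gatb rose. It encodes a subunit of the amidotransferase that completes mitochondrial glutaminyl-tRNA after EARS2 has loaded glutamate, and it went from 21.4, 20.9 and 20.3 CPM to 26.8, 27.2 and 26.6 CPM (0.36 ± 0.07, SE; edgeR adjusted p = 0.0455). Of the other subunits, Qrsl1 read 17.1, 16.2 and 16.6 CPM against 21.2, 22.8 and 20.3 CPM (0.37; edgeR adjusted p = 0.0667), and Gatc had -0.03. Guf1, a mitochondrial translation GTPase, fell from 105, 92.8 and 86.6 CPM to 67.5, 72.9 and 72.6 CPM (-0.42 ± 0.09, SE; edgeR adjusted p = 0.0497). Both calls were kept without vector control tumor 1 and lost without any 1 of the other 5 tumors, and limma-voom kept Gatb only. Mto1, which modifies mitochondrial tRNAs, had -0.41 and did not pass in edgeR (adjusted p = 0.0967). DESeq2 called 2 of the 19 higher (Gatb and Qrsl1) and 2 lower (Guf1 and Mto1), against 6.5% and 8.12% of all genes it tested.

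Among 9 genes that deliver or proofread charged cytosolic tRNA, none passed in edgeR or limma-voom. Dtd1, which removes D-amino acids from tRNA, was higher at an unadjusted p below 0.05, at 19.4, 25.7 and 20.9 CPM in control and 33.1, 31.6 and 31.1 CPM in the knockouts (log2 fold change 0.54; edgeR adjusted p = 0.0568). Eef1a1, the elongation factor that carries charged tRNA to the ribosome, was lower at that level (-0.23; edgeR adjusted p = 0.155). DESeq2 called both.

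A list of ATF4 target genes without synthetases was read beside them, and the part of ATF4 in the synthetase values was not tested. Of 21 tested (of 22 listed), 3 fell and none rose in edgeR, against 2.75% and 2.21% of all tested genes. All 21 had a fold change below 0, against 50.9% of all tested genes, and the median log2 fold change was -0.65. The sign turned without 1 tumor for Sesn2, Vldlr and Stc2 (highest values 0.09, 0.35 and 0.52). DESeq2 called 14 of the 21 lower, against 8.12% of all genes it tested. The 3 that fell encode amino acid transporters: Slc7a5 and Slc3a2, the pair that imports leucine and isoleucine, and Slc7a1, which imports lysine and arginine. Slc7a5 went from 635, 613 and 527 CPM to 303, 324 and 301 CPM (-0.94 ± 0.09, SE; edgeR adjusted p = 0.00997). Slc3a2 (-0.52; edgeR adjusted p = 0.0314) and Slc7a1 (-0.58; edgeR adjusted p = 0.0424) changed less. Asns, which makes asparagine, was at 163, 269 and 205 CPM against 112, 128 and 129 CPM (-0.79; edgeR adjusted p = 0.0654). The call of Slc7a5 was lost without vector control tumor 2 or ATM KO tumor 1, and the other 2 were kept only without vector control tumor 1.

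Of 15 eIF2 kinase and stress response regulator genes 1 fell, Eif2ak3, and none rose in edgeR, against 2.75% and 2.21% of all tested genes. A fold change below 0 was seen in 13 of the 15 (median -0.33), against 50.9% of all tested genes. DESeq2 called 3 lower (Eif2ak2, Eif2ak3 and Cebpg), against 8.12% of all genes it tested. Eif2ak3 encodes PERK, the eIF2 kinase of the endoplasmic reticulum. It went from 84.9, 98.8 and 82.5 CPM to 60.5, 60.9 and 58.7 CPM (log2 fold change -0.56 ± 0.08, SE; edgeR adjusted p = 0.0264), a call kept without vector control tumor 1 and lost without any 1 of the other 5. Eif2ak4, which encodes GCN2, the kinase that senses uncharged tRNA, had 0.16 (edgeR adjusted p = 0.270). Atf4 itself was at 210, 312 and 234 CPM in control and 163, 202 and 200 CPM in knockout tumors, without overlap (-0.42 ± 0.17, SE; edgeR adjusted p = 0.203). Every ATM KO tumor was likewise below every control for 15.4% of all tested genes. ATF4 is controlled largely at translation, which these counts do not measure.

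The controls also differed among themselves. Vector control tumor 2 was the highest control for 16 of the 19 cytosolic synthetases and vector control tumor 1 the lowest for 15. Relative to the control mean, the median over the 19 genes was -0.11, 0.14 and -0.03 on the log2 scale in controls 1, 2 and 3 and -0.18, -0.15 and -0.26 in ATM KO tumors 1, 2 and 3. For the ATF4 targets the same medians were -0.42, 0.33 and 0.09 against -0.83, -0.54 and -0.70. In both lists vector control tumor 1 lay nearest to the knockout tumors, while the mitochondrial synthetases overlapped (0.01, 0.05 and -0.08 against 0.13, 0.09 and 0.02). Adipocyte markers, 6 in all, were likewise lowest in control 1 and highest in control 2, summing to 40.5, 463 and 294 CPM in controls 1, 2 and 3 and 32.9, 37.3 and 99.4 CPM in ATM KO tumors. Fibroblast markers, 9 in all, summed to 314, 2301 and 3315 CPM against 1541, 1777 and 1516 CPM. None of the adipocyte or fibroblast markers was at 0 in every tumor, and their part in the synthetase values was not tested.

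**Figure D4:**
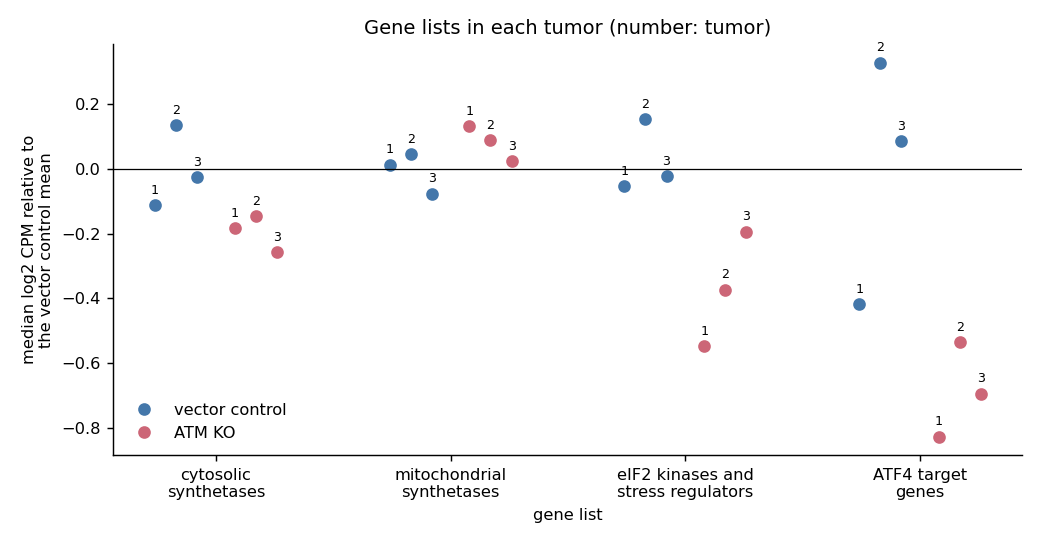
Median over each gene list of log2 CPM relative to the gene's mean in vector control tumors, per tumor (numbered). Cytosolic synthetases run from -0.11 to 0.14 in control and from -0.26 to -0.15 in knockout tumors, ATF4 targets show a wider spread in the same direction, and mitochondrial synthetases overlap.

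Some cytosolic synthetase genes lie where many genes were lower. Aars (111033144 to 111057664), Farsa (84856989 to 84869257) and Kars (111993443 to 112011323) are on chromosome 8 (GRCm38), whose other tested genes had a median log2 fold change of -0.26. In the 10 Mb windows that hold them the medians were -0.34 over 55 genes for Aars and Kars and -0.29 over 87 genes for Farsa. Kars (-0.27) and Farsa (-0.35) thus stood near their surroundings, whereas Aars (-0.66) was lower than its window. Cars2, also on chromosome 8, had a window median of -0.04, and the transporter gene Slc7a5 on that chromosome one of -0.34. Gars (chromosome 6, 55038007 to 55079500) and Iars (chromosome 13, 49682100 to 49734267) lie in windows with medians of 0.01 and -0.06, and the windows of Sars and Yars had -0.0095 and 0.06. The part of chromosomal position in these values was not tested.

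**Figure D5:**
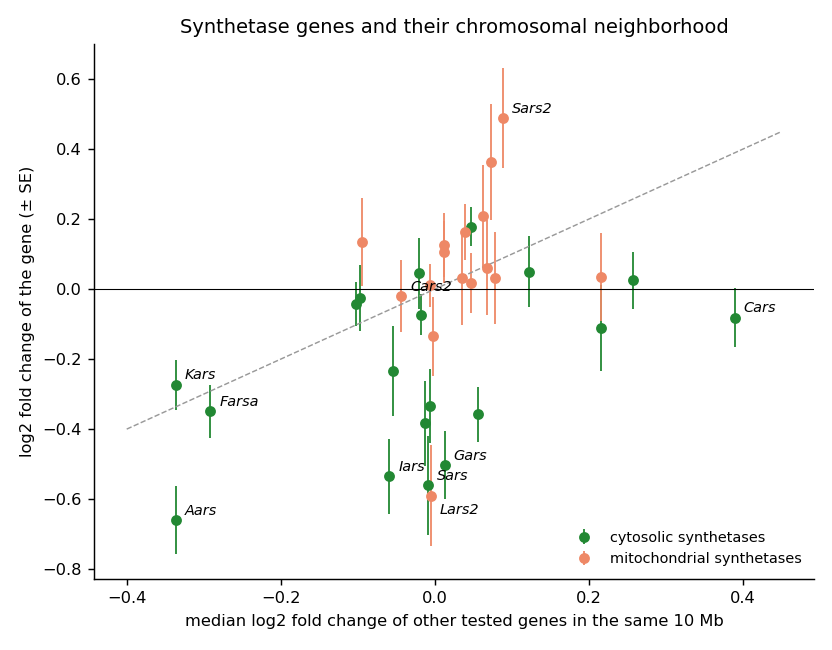
Log2 fold change of each synthetase gene (± SE) against the median log2 fold change of the other tested genes in its 10 Mb window, with a dashed line of equality. Aars, Kars and Farsa lie at window medians of -0.34, -0.34 and -0.29, while Gars, Iars and Sars lie near 0 on the horizontal axis.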

How the data were processed

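Raw counts for each gene were deposited, with a file for every library. The submitters' processing notes list HTSeq, STAR, SAMtools, Trim Galore and cutadapt, and the builds mm10 and GRCm38, with no versions. Whether counting used strand is not stated in those notes. All 55536 gene identifiers matched GENCODE M21. Rows naming no gene were left out: reads outside genes were 16.7% to 18.2% of those listed and ambiguous reads 1.21% to 1.38%. Multiply aligned reads are listed at 0, so near-identical copies may lack reads.

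Genes were filtered with filterByExpr (minimum count 10, minimum total 15) of edgeR 4.0.16, scaled by TMM (factors 0.958 to 1.03) and tested by the robust quasi-likelihood F test with genotype as the term, Benjamini-Hochberg adjusted over 15696 genes. The SE is the log2 fold change divided by the root of F. Libraries of the same group differed by more than sampling noise in every pair (chi-square over its degrees of freedom, 19.1 to 72.3). On simulated counts for this comparison with 200 changed genes among 15448, the test recovered 61% of 2-fold and 92% of 4-fold changes, with 10 false among 163 calls. The changed genes were drawn from the better expressed ones. Changes below 2-fold, such as those of all synthetase genes here, were not simulated. Alternatives included DESeq2 1.42.0 and limma-voom (limma 3.58.1). Members and lists were chosen with earlier results of these data known. Values are given in full for members called by any of the 3 tools, the 3 highest and 3 lowest of each class, and Wars, Gars, Kars, Eprs and Atf4. For partner lists, called members and up to 4 with the smallest p could be named, and examples are printed. Asns, Eif2ak4, Gatc, AA474408 and Gm15564, and the tumor values of Rars, Tars and Iars2, were chosen after their values were seen. Motifs were searched in RefSeq promoters, and Lars2 transcripts were compared with all others by blastn (at least 50 bases and 94% identity).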

Additional observations from a re-analysis of the deposited data

How the results depend on the processing

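The number of cytosolic synthetase genes called lower, 3, became 9 with DESeq2 and 1 when counts were scaled by library size alone, and ran from 0 to 5 when each tumor was left out. The number called higher, 0, became 1 with DESeq2. Of mitochondrial genes 1 was called higher and 1 lower with DESeq2 and 1 lower without a filter, and 0 to 1 lower without 1 tumor. Over all genes, DESeq2 called 920 higher and 1150 lower, against 347 and 431. Without 1 tumor 0 to 587 were higher and 2 to 622 lower. No label ties tumors of the same number, and same-numbered tumors did not deviate together (correlations 0.044, -0.272 and -0.42). With a replicate block 0 genes were called higher and 0 lower, 0 synthetase genes among them, and the block leaves fewer degrees of freedom. The median of the cytosolic genes ran from -0.2878 to -0.082 and that of the mitochondrial genes from 0.0166 to 0.1544 without 1 tumor. Signs turned for Dars (0.0056) and Cars2 (0.0101) under a filter of 1 CPM in at least 3 libraries, and for Dars (0.025), Qars (0.0071) and Cars2 (0.0298) with library size alone. Without 1 tumor they turned, over ranges of all 6 fits, for Cars (-0.1115 to 0.0176), Dars (-0.0787 to 0.0446), Farsb (-0.0427 to 0.1535), Tars (-0.0317 to 0.1095), Wars (-0.0385 to 0.1139), Cars2 (-0.0939 to 0.0712), Ears2 (-0.0312 to 0.1317), Hars2 (-0.0326 to 0.0738), Iars2 (-0.002 to 0.0389), Mars2 (-0.0465 to 0.1854) and Vars2 (-0.0408 to 0.1451). The cause of these differences was not tested. Aars, Gars and Iars were below 0 under all alternatives run, and over the members 463 of the single-gene comparisons with an alternative kept direction and side of the threshold, 15 passed only under the alternative, 20 lost the call and 27 turned sign. Depth limits Pars2 most, at 133 to 224 counts per library.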

Other observations

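MYC is a further known activator of genes for translation, and its list was read beside the synthetases. Of 15 genes, MYC itself included, none passed in edgeR or limma-voom, and the median log2 fold change was -0.11. At an unadjusted p below 0.05, 3 were lower (Npm1, Nolc1 and Myc) and 1 higher (Polr1b), against 12.3% and 10.6% of all tested genes. DESeq2 called 1 of the 15 lower (Npm1), against 8.12% of all genes it tested. Myc was at 70.0, 111 and 86.3 CPM in vector control tumors 1, 2 and 3 and at 48.3, 65.2 and 70.6 CPM in ATM KO tumors 1, 2 and 3 (-0.54; edgeR adjusted p = 0.199), so the groups overlapped by ATM KO tumor 3 alone. Npm1, a nucleolar chaperone of ribosome assembly, was at 350, 379 and 330 CPM against 265, 297 and 300 CPM (-0.30; edgeR adjusted p = 0.105).

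Erythroid markers, 5 in all, summed to 576, 61.9 and 734 CPM in vector control and 20.1, 8.88 and 454 CPM in ATM KO tumors, and the 8 endothelial markers to 190.5 to 335 CPM against 194 to 223 CPM. Of 8 keratinocyte markers 4 were at 0 in every tumor. None of these 3 lists had a member called in edgeR, and their part in the synthetase values was not tested. DESeq2 called 1 of the 8 endothelial genes lower, against 8.12% of all genes it tested.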
